A study of Homo sapiens with 18 samples.

Results

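SW620 cells, a human colon cancer line of epithelial origin, received an siRNA that targets LONP1 (siLonp1) or a scramble control, went through 1 h of heat shock at 42 °C and recovered during 1 h at 37 °C. The comparison described here sets siLonp1 against scramble in these recovered cells, and its 6 samples, 3 in each group, were chosen by the names of their columns among the 18 samples of the series. The other samples received the same siRNAs and were kept at 37 °C or taken at the end of the heat shock, and they are used to test whether the effect of siLonp1 differed between conditions. The study's methods list a pair of siRNAs against Lonp1 and do not state which was used for RNAseq, so effects of the siRNA sequence on other transcripts cannot be told apart from effects of losing LONP1. The 6 samples held 43000394, 40830443 and 47279297 counts with scramble and 45024299, 41377651 and 40863606 with siLonp1. Of 26485 gene symbols, the 12509 with more than 1 CPM (counts scaled to a total of 1e6 per sample) in at least 3 of the 6 samples were tested. Just inside this limit were LRRC39 and ANKRD34A, whose deciding level was 1.0033 CPM, and just outside it FMO5 and LINC00959 at 0.99999 CPM. Of the 13976 genes below the limit, 6656 had no count in any of the 6 samples.

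LONP1 is an ATP-dependent protease of the mitochondrial matrix that degrades misfolded and oxidised proteins, acts with the matrix chaperones and binds mitochondrial DNA. Heat unfolds proteins throughout the cell and releases HSF1, the transcription factor that induces the chaperones of the heat shock response, and this response is switched off again as chaperones free up during recovery. In human cells, stress inside mitochondria is signalled to the nucleus mainly through the integrated stress response, in which ATF4 and its partners raise genes for amino acid synthesis and transport.

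Levels are given as CPM scaled by TMM factors, which correct the totals for differences in composition, and changes as log2 fold changes of siLonp1 over scramble from edgeR's quasi-likelihood test with Benjamini-Hochberg adjustment over the 12509 genes. LONP1, at chr19:5691834-5720452 of GRCh38.p14, stood at 224, 196 and 236 CPM with scramble and at 27.3, 25.4 and 28.8 CPM with siLonp1. Every silenced sample lay far below every scramble sample, and the groups did not overlap. The log2 fold change was -3.01 (standard error 0.08, edgeR adjusted p = 2.26e-17), so that 12.4% of the transcript remained. The silencing was less deep than at the end of the heat shock, where the log2 fold change was -4.19 with levels between 11.6 and 11.9 CPM, and the difference of 1.19 passed the interaction test (standard error 0.11, edgeR adjusted p = 3.46e-06). Against the -3.43 seen at 37 °C the difference was 0.42 (standard error 0.11, edgeR adjusted p = 0.0451), a call that was lost in 9 of 12 fits with 1 sample left out.

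Markers of the labelled cell type were present. Of 15 colon epithelial markers 12 were tested, and their summed level was 9830, 8893 and 10310 CPM (total counts scaled only by sample size) with scramble and 10290, 8477 and 9667 CPM with siLonp1. These sums overlapped and were led by KRT8, which encodes a keratin of simple epithelia, whereas by gene 6 markers were lowered, 3 of them by more than 2-fold, 1 was raised and 5 did not pass, with a median log2 fold change of -0.15. CDX1 had no count in any of the 6 samples. Endothelial markers were near 0, with none of 6 tested, a summed level between 0.888 and 1.25 CPM and no count for KDR or CLDN5. Of 7 haematopoietic markers 3 were tested, with sums between 17.4 and 21.1 CPM that came mainly from CD68. All 3 passed the test without overlap of the groups, CD68 and CD14 upward by 0.44 and 0.86 and LYZ, the gene of lysozyme, downward with a log2 fold change of -1.32. Fibroblast markers summed to 62.9, 62.8 and 61.6 CPM with scramble and to 46.0, 47.0 and 46.2 CPM with siLonp1, with COL1A1 the most abundant and COL3A1 at 0. Of the 8 fibroblast markers 3 were tested, of which LUM, the gene of the matrix proteoglycan lumican, fell from 30.7, 32.0 and 30.1 CPM to 11.98, 11.5 and 12.8 CPM, and PDGFRB, a receptor of platelet-derived growth factor, rose from 1.18, 1.08 and 1.12 CPM to 2.52, 2.47 and 2.37 CPM (log2 fold changes -1.36 and 1.12). The part of other cell types in the results was not tested.

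After recovery, silencing of LONP1 raised 330 genes by more than 2-fold (2.64% of the genes tested) and lowered 150 (1.20%). Over all genes tested, the siLonp1 samples all lay above the scramble samples in 25.8% and all below in 26.7%, so groups that do not overlap were common, and in genes called over 2-fold they add no support beyond the call. Small shifts were far more common: with no fold limit, 3372 genes passed upward (27.0%), 3469 passed downward (27.7%) and 5668 did not pass. The median log2 fold change over all genes tested was -0.00, and 96.2% of genes lay between -1 and 1. Raised genes went from a median level of 4.15 CPM in scramble to 10.6 CPM, and lowered genes from a median of 4.13 to 1.68 CPM. A mean level of at least 10 CPM was reached by 143 of the raised and by 32 of the lowered genes. Leaving out scramble replicate 1, 2 or 3 gave 97, 102 or 109 genes lowered by more than 2-fold. Leaving out siLonp1 replicate 1, 2 or 3 gave 258, 283 or 291 raised genes. The limit of 3 samples above 1 CPM was kept in these fits. Genes above it only in the group short of a sample were then not tested. Scaling by sample totals alone, without TMM, moved the median of all genes to -0.07 and gave 2599 upward and 4394 downward calls with no fold limit.

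**Figure D1:**
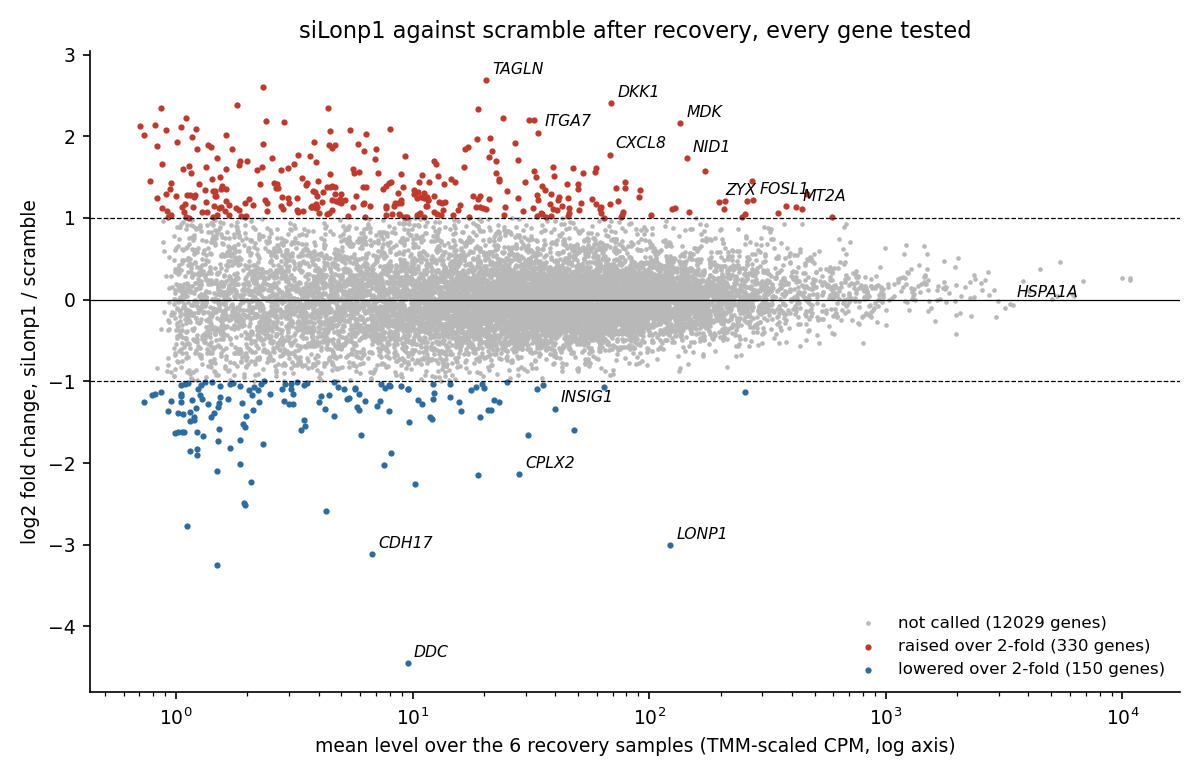
Log2 fold change of siLonp1 over scramble after recovery (vertical axis) against the mean level over the 6 samples in TMM-scaled CPM (horizontal log axis), with 1 point for each of the 12509 genes tested. The 330 raised genes (red) and 150 lowered genes (blue) lie beyond the dashed lines at 1 and -1, and most genes lie between them.

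Of genes with a mean of at least 1 CPM and groups that do not overlap, the largest rise was that of TAGLN, at chr11:117199294-117207465. TAGLN encodes the actin-binding protein transgelin. It stood at 5.42, 5.31 and 5.65 CPM with scramble and at 39.0, 31.0 and 35.7 CPM with siLonp1. The silenced samples were all several-fold above the scramble samples, and the log2 fold change was 2.69 (standard error 0.10, edgeR adjusted p = 9.51e-15). DKK1, at chr10:52314281-52317657, encodes a secreted inhibitor of WNT co-receptors and rose from 22.3, 23.6 and 19.7 CPM to 109, 117 and 122 CPM. Its groups were likewise apart (log2 fold change 2.41, standard error 0.09, edgeR adjusted p = 4.69e-15). MDK, the gene of the heparin-binding growth factor midkine, was the most abundant of the 15 raised genes named by size of change, at 43.5, 49.2 and 55.9 CPM against 246, 208 and 209 CPM. Its lowest silenced sample was above its highest scramble sample by several times the spread within a group (log2 fold change 2.16, standard error 0.08, edgeR adjusted p = 5.68e-15).

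Among the other strongly raised genes were receptors and signalling proteins. NGFR, the low-affinity receptor of neurotrophins, rose from 6.24 ± 0.813 to 31.4 ± 3.59 CPM (mean and SD, n = 3 in each group). SHC4, an adaptor of receptor tyrosine kinases, rose from 1.45 ± 0.293 to 7.29 ± 1.15 CPM, and DUSP5, a phosphatase of nuclear ERK, from 11.7 ± 0.671 to 53.6 ± 5.33 CPM. LBH, a transcription cofactor, and PRICKLE2, of the planar polarity pathway, had log2 fold changes of 2.22 and 2.18. KRT81, a hair keratin, rose by 2.19, with the limit that KRT86 is a close copy and reads may be split between them. TNNC1, a troponin of slow muscle, and the lysosomal membrane gene LAPTM5 rose by 2.19 and 2.09 at lower levels, with at most 5.08 and 13.9 CPM in a silenced sample. MMP25, MDGA1, LPPR3 and APLP1 had log2 fold changes of 2.61, 2.38, 2.23 and 2.11. All 4 stood below 1 CPM in each scramble sample, so they passed the CPM limit through their levels with siLonp1. Asking for CPM above 1 in all 6 samples gave 248 raised genes.

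Within the same limits of mean level and overlap, the lowered genes were led by DDC, at chr7:50458442-50565405. DDC encodes the decarboxylase that makes dopamine and serotonin and is known from enterocytes and kidney tubules. It stood at 18.7, 17.3 and 18.6 CPM with scramble and at 0.719, 1.03 and 0.741 CPM with siLonp1. All 3 silenced samples were near the CPM limit, and the log2 fold change was -4.45 (standard error 0.16, edgeR adjusted p = 4.69e-15), a deeper fall than that of the targeted transcript. CDH17, the liver-intestine cadherin, went from 12.3, 12.1 and 11.9 CPM to 1.39, 1.41 and 1.38 CPM. The 3 values of each group were nearly equal and the groups far apart (log2 fold change -3.11, standard error 0.13, edgeR adjusted p = 3.07e-14). CPLX2, a regulator of vesicle fusion, was, after LONP1, the most abundant of the 15 lowered genes named by size of change, at 46.8, 43.0 and 48.2 CPM against 10.6, 8.78 and 11.976 CPM. It fell without overlap of the groups (log2 fold change -2.14, standard error 0.10, edgeR adjusted p = 2.01e-13).

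Among the other genes of this set, AGR2, a disulfide isomerase of mucus-producing cells, fell from 17.0 ± 0.379 to 3.55 ± 0.469 CPM, TSPAN8, a tetraspanin of colon epithelium, from 12.1 ± 1.15 to 2.99 ± 0.337 CPM, and GCNT3, a glycosyltransferase of mucins, from 2.42 ± 0.172 to 0.566 ± 0.209 CPM. CDH16, the cadherin of kidney epithelium, and CAPN8, a calpain of the gut, fell by 2.77 and by 2.23 on the log2 scale. The remaining named genes were ARSE at -3.24, PPFIBP2 at -2.59, CYP1A1, a xenobiotic oxidase, at -2.51, the amino acid transporter gene SLC38A4 at -2.49 and the cytoskeletal gene GAS2 at -2.01. TGFBR3, a co-receptor of TGF-beta and inhibin, fell by 2.14 and is described with its family.

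**Figure D2:**
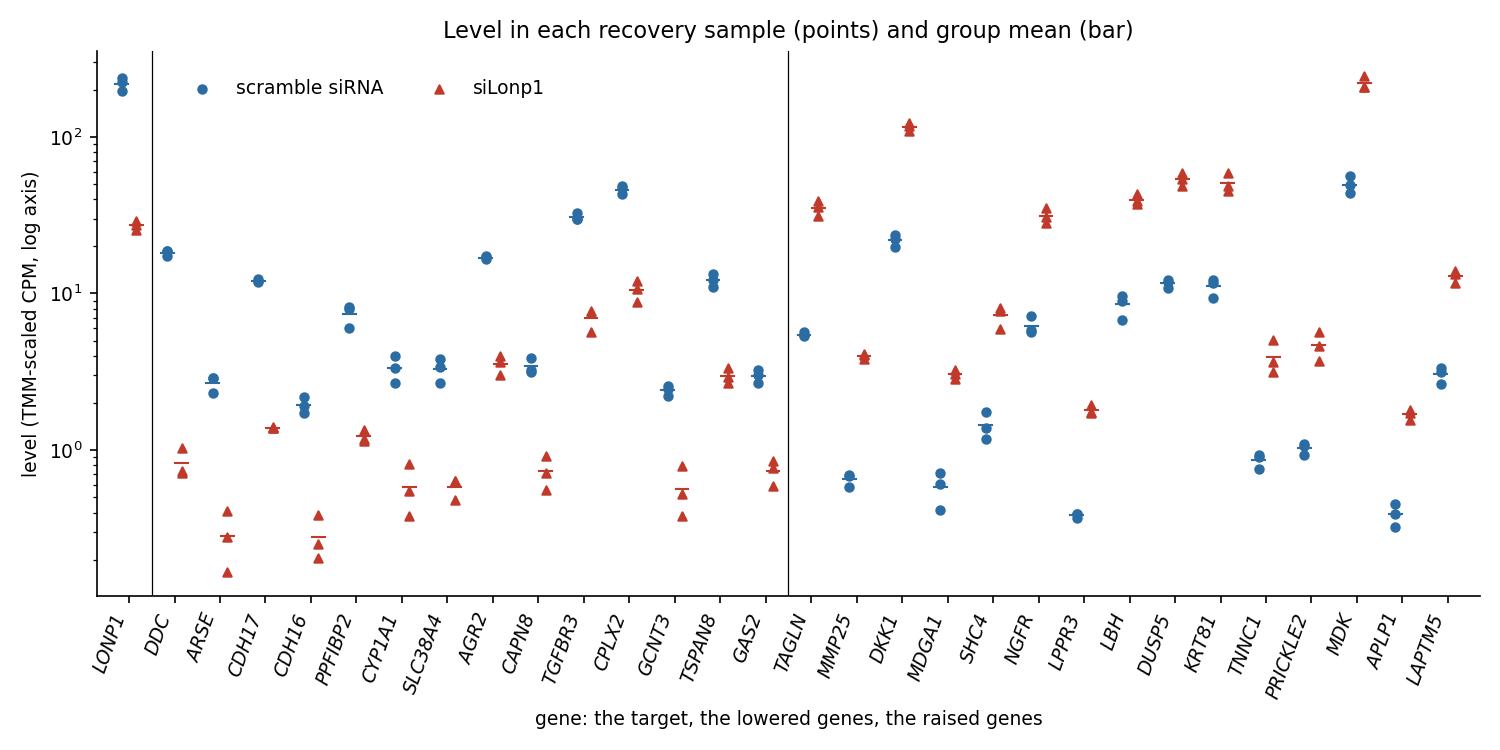
Level of LONP1, of 14 further lowered genes and of 15 raised genes in each of the 6 recovery samples (points, scramble as blue circles and siLonp1 as red triangles, TMM-scaled CPM on a log axis), with the group mean as a bar. The genes were chosen to have groups that do not overlap, and DDC shows the widest gap, from 17.3 CPM or more with scramble to 1.03 CPM or less with siLonp1.

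Of 56 intestinal differentiation genes, 25 were tested and 31 were below the CPM limit, 9 of these with no count, and in every list below the members not tested are those under this limit. Among those tested 7 were raised (28% beside 27.0% of all genes), 11 lowered (44% beside 27.7%) and 7 did not pass, and the median log2 fold change was 0.01. Besides CDH17, the large falls were those of CEACAM6 and CEACAM5, adhesion glycoproteins of colon epithelium, at -1.82 and -1.38, of the fatty acid carrier gene FABP1 at -1.62 and of the brush-border myosin gene MYO1A at -1.22. CDX2, the homeobox factor that specifies intestinal epithelium and a marker of the line's tissue, stood at 23.9, 22.2 and 28.8 CPM with scramble and at 12.4, 10.1 and 13.2 CPM with siLonp1. No silenced sample reached a scramble sample (log2 fold change -1.07, standard error 0.09, edgeR adjusted p = 4.65e-09). CA2, a carbonic anhydrase of surface colonocytes, went the other way, with a log2 fold change of 1.13 at levels of at most 1.29 CPM. In the list 2 members were raised by more than 2-fold and 6 were lowered by as much. KRT19, the most abundant gene of the list, had overlapping groups at 880.0, 809 and 1033 CPM against 1193, 849.7 and 979.5 CPM. Leaving out scramble replicate 1, 2 or 3 gave 5, 6 or 5 lowered members. Asking for CPM above 1 in all 6 samples, which removes genes that fell below 1 CPM, gave 6. The share of 44% therefore depends on the CPM limit. With no filter 11 members were raised.

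Metallothioneins are small cysteine-rich proteins that bind zinc and copper. Of 15 metallothionein and zinc genes 11 were tested and 4 were below the CPM limit. Of those tested 9 were raised (81.8% beside 27.0% of all genes), 7 of them by more than 2-fold, 1 was lowered (9.09% beside 27.7%) and 1 did not pass, and leaving out siLonp1 replicate 2 or 3 gave 2 or 0 lowered members and scaling by totals gave 2. The median log2 fold change was 1.06, the highest among the lists, where all genes tested had -0.00. Promoters are shown for 3 members because metallothionein promoters are known for repeated metal response elements, to which the zinc-sensing factor MTF1 binds. Each is the RefSeq sequence of GRCh38.p14 on the plus strand, 250 bases before to 50 after the start of the gene, for MT2A at chr16:56608334-56608633, for MT1X at chr16:56682220-56682519 and for MT1H at chr16:56669564-56669863, and capitals mark matches on either strand to TGCNCNC, the core of the element, with no other motif marked.
MT2A: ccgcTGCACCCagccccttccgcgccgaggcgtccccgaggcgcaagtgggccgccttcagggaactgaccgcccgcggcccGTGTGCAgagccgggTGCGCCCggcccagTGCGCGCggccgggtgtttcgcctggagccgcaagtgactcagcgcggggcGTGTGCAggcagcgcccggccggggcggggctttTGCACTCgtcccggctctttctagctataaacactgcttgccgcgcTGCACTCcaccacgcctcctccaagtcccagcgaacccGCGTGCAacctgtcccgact
MT1X: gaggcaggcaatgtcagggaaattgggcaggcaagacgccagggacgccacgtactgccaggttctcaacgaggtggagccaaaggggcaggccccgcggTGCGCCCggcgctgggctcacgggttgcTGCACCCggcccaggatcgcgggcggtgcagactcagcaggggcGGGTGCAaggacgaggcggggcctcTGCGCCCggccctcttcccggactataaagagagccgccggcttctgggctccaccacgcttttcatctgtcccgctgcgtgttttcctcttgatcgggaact
MT1H: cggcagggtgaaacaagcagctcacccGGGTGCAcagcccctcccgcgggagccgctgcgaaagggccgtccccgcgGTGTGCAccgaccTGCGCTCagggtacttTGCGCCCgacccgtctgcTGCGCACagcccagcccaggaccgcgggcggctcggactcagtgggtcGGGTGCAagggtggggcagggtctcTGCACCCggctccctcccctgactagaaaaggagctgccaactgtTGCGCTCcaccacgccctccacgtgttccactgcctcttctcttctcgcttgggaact

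MT2A and MT1H each held 8 matches and MT1X held 4. Of 35114 promoters of the same length, 55.9% held at least 1 match, 2.94% at least 4 and 0.0712% at least 8. The promoter of MT2A also held 1 match to the AP-1 site TGANTCA, which 7.71% of promoters held. A match is a description of the letters and not evidence of binding. Of the 11 genes tested, 6 had a promoter in the table used. MTF1 had 1 match, SLC30A1, a zinc exporter gene, had 2, a number reached by 24.2% of promoters, and the zinc importer gene SLC39A10 had 0 and 1 in its 2 promoters.

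MT2A was the most abundant member, at 272, 250.3 and 263 CPM with scramble and 616, 533 and 568 CPM with siLonp1. The groups were far apart, and the log2 fold change was 1.13 (standard error 0.07, edgeR adjusted p = 4.18e-11). MT1X stood at 52.9, 50.2 and 47.8 CPM against 109.6, 88.4 and 105 CPM, and MT1H at 1.95, 2.03 and 1.81 CPM against 5.61, 3.73 and 6.28 CPM. Both rose in all 3 silenced samples, by 1.01 and 1.43 on the log2 scale. MT1M, MT1F, MT1G and MT1E had log2 fold changes of 1.99, 1.17, 1.13 and 1.06. The coding parts of these genes are close copies of each other, so the share of each in the reads is uncertain. The median over the same genes was 0.38 at 37 °C and 0.93 at the end of the heat shock, and no member passed the interaction between recovery and the heat shock. The effect after recovery was larger than that at 37 °C for MT1G by 0.75 (edgeR adjusted p = 0.0242 for the interaction), for MT1X by 0.48 (edgeR adjusted p = 0.0432) and for SLC30A1 by 0.47 (edgeR adjusted p = 0.0378). MT1X and SLC30A1 were chosen after their values were seen. With 1 sample left out, the interaction call was lost in 4 of 12 fits for MT1G (0.67 to 0.87), in 11 for MT1X (0.42 to 0.56) and in 10 for SLC30A1 (0.36 to 0.58).

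The MAP kinase feedback list includes phosphatases of MAP kinases, Sprouty proteins that ERK induces and that limit it, and ligands of the EGF receptor. Other members include ETV4, EPHA2 and LIF. Of 29 listed 28 were tested, and 19 were raised (67.9% beside 27.0% of all genes), 5 of them by more than 2-fold, 1 was lowered (3.57% beside 27.7%) and 8 did not pass, with a median log2 fold change of 0.56. DUSP5, at chr10:110497907-110511533, led with 10.9, 12.2 and 11.9 CPM against 59.0, 53.4 and 48.4 CPM. The groups did not overlap (log2 fold change 2.20, standard error 0.08, edgeR adjusted p = 4.69e-15). HBEGF and AREG, ligands of the EGF receptor, rose from 11.5 ± 1.28 to 33.5 ± 5.15 CPM and from 20.6 ± 2.14 to 58.7 ± 2.37 CPM (mean and SD, n = 3). SPRED3 and DUSP8 rose by 1.37 and 1.36 at a few CPM, and PHLDA1, the most abundant member, rose by 0.93. The rise of DUSP5 was larger than at 37 °C by 0.50 (edgeR adjusted p = 0.0225 for the interaction) and than at the end of the heat shock by 0.48 (edgeR adjusted p = 0.0243), each lost in 4 of 12 fits with 1 sample left out (0.43 to 0.57 and 0.40 to 0.54). Without scramble replicate 2 or siLonp1 replicate 1, or with only the recovery samples in the fit, 0 members were lowered, and with scaling by totals 2.

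Immediate early genes are switched on by growth factors and stress within minutes. All 37 listed were tested, and 22 were raised (59.5% beside 27.0% of all genes), 6 by more than 2-fold, 4 were lowered (10.8% beside 27.7%) and 11 did not pass, with a median of 0.43. NR4A1, an orphan nuclear receptor, stood at 6.93, 7.17 and 7.91 CPM against 31.1, 28.4 and 21.0 CPM. Its silenced samples were spread more widely than its scramble samples but all lay higher (log2 fold change 1.87, standard error 0.11, edgeR adjusted p = 6.6e-12). FOSL1, an AP-1 subunit with high levels in this line, rose from 165 ± 9.19 to 384 ± 25.3 CPM. KLF2, EGR4, NR4A3 and FOSB rose by 1.38, 1.38, 1.16 and 1.06. MYC, the most abundant member, had overlapping groups at 1329, 983 and 1017 CPM against 829.6, 810.0 and 1047 CPM. Its log2 fold change of -0.31 (edgeR adjusted p = 0.0113) no longer passed without scramble replicate 1 (-0.16), siLonp1 replicate 1 (-0.25) or siLonp1 replicate 2 (-0.24), nor with only the recovery samples in the fit (-0.31, edgeR adjusted p = 0.0537). EGR3, chosen after its values were seen, had a log2 fold change of 0.01 after recovery, 1.06 at 37 °C and 0.90 at the end of the heat shock, and both differences passed the interaction test (edgeR adjusted p = 0.00306 and adjusted p = 0.00404).

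Of 36 genes of the actin cytoskeleton and targets of the serum response factor 33 were tested, and 22 were raised (66.7% beside 27.0% of all genes), 6 by more than 2-fold, 3 were lowered (9.09% beside 27.7%) and 8 did not pass, with a median of 0.37. Besides TAGLN, the named members were ZYX, the focal adhesion protein zyxin, from 120.1 ± 12.1 to 276 ± 31.4 CPM, and CNN3, acidic calponin, from 227 ± 16.4 to 472 ± 10.8 CPM (mean and SD, n = 3). FHL1, a LIM protein, ANKRD1, a stretch-induced cofactor, and MYL9, a myosin light chain of contractile cells, rose by 1.34, 1.24 and 1.20. ACTB, the most abundant member, rose by 0.23. CNN3 rose more after recovery than at 37 °C by 0.49 (edgeR adjusted p = 0.00354 for the interaction) and than at the end of the heat shock by 0.43 (edgeR adjusted p = 0.00859). VCL, the gene of vinculin, was chosen after its values were seen: its log2 fold change was 0.10 after recovery, short of the limit, and 0.73 and 0.68 in the other conditions, with both differences past the interaction test (edgeR adjusted p = 0.00223 and adjusted p = 0.00176). These calls of CNN3 and VCL held in each of the 12 fits with 1 sample left out.

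Matrix and adhesion genes were the largest list with many changes. Of 130 listed, 62 were tested and 68 were below the CPM limit, 16 of these with no count. Among those tested 35 were raised (56.5% beside 27.0% of all genes), 10 by more than 2-fold, 12 were lowered (19.4% beside 27.7%), 2 by more than 2-fold and to a lowest log2 fold change of -1.65, and 15 did not pass, with a median of 0.35. ITGA7, a laminin receptor subunit, stood at 12.3, 13.1 and 14.3 CPM against 55.6, 52.0 and 56.4 CPM. Its groups were narrow and did not overlap (log2 fold change 2.04, standard error 0.08, edgeR adjusted p = 5.96e-15). NID1, which encodes the basement membrane linker nidogen, rose from 66.5 ± 7.43 to 221 ± 21.8 CPM, and ITGB8, an integrin that activates latent TGF-beta, from 13.1 ± 1.62 to 42.7 ± 6.23 CPM. COL6A2, ADAMTS6 and BGN, the genes of a collagen VI chain, a matrix metalloprotease and biglycan, had log2 fold changes of 1.86, 1.86 and 2.02 at levels of at most 8.44 CPM. ITGB1, the common integrin beta chain and the most abundant member, rose by 0.57.

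The list for epithelial-mesenchymal transition did not move as its name would have it. Of 41 listed 30 were tested and 11 were below the CPM limit, and 15 were raised (50% beside 27.0% of all genes), 3 by more than 2-fold, 2 were lowered (6.67% beside 27.7%) and 13 did not pass, with a median of 0.22. AXL, a receptor tyrosine kinase, stood at 27.6, 23.5 and 22.4 CPM against 63.1, 62.9 and 70.8 CPM. Its groups were apart (log2 fold change 1.42, standard error 0.08, edgeR adjusted p = 8.69e-12). TJP3, a tight junction protein of epithelia, also rose, by 1.18, and CDH1, which encodes E-cadherin and is a marker of the epithelial list, by 0.49. VIM, the mesenchymal filament vimentin and the most abundant member, fell from 531 ± 49.1 to 408 ± 22.3 CPM (log2 fold change -0.38, edgeR adjusted p = 6.95e-05). MMP7, a protease of epithelial cells, fell by 1.26 near the CPM limit. Without scramble replicate 2 or 3, or with CPM above 1 asked in all 6 samples, 1 member of the list was lowered.

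TGF-beta and BMP genes included ligands that rose and a co-receptor that fell. Of 47 listed 36 were tested, and 19 were raised (52.8% beside 27.0% of all genes), 8 lowered (22.2% beside 27.7%) and 9 did not pass, with a median of 0.32. TGFB1, the ligand, stood at 36.5, 36.8 and 47.6 CPM against 123, 89.7 and 98.2 CPM, and PMEPA1, a target that dampens the pathway, at 91.9, 93.5 and 98.6 CPM against 199.9, 203 and 193 CPM. Both had all silenced samples above the scramble samples, with log2 fold changes of 1.36 and 1.07. TGFBR2, the most abundant member and a signalling receptor, rose by 0.45. TGFBR3, at chr1:91680343-91906002, stood at 30.1, 32.5 and 29.7 CPM against 7.5005, 7.67 and 5.64 CPM. It fell in every silenced sample (log2 fold change -2.14, standard error 0.09, edgeR adjusted p = 8.05e-14), and by more than at the end of the heat shock, where the log2 fold change was -0.82. That difference of -1.32 passed the interaction test (standard error 0.13, edgeR adjusted p = 3.46e-06) and ranged from -1.40 to -1.20 with each sample left out.

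Few WNT targets moved far. Of 32 listed 29 were tested, and 9 were raised (31% beside 27.0% of all genes), 12 lowered (41.4% beside 27.7%) and 8 did not pass, with a median of -0.12. DKK1 was the 1 member past 2-fold. LGR5, a stem cell receptor of the colon crypt, fell from 68.4, 63.8 and 58.9 CPM to 27.6, 37.1 and 41.6 CPM, and LEF1, a WNT-responsive factor, from 8.502, 9.35 and 8.71 CPM to 4.53, 5.00 and 4.72 CPM. Neither gene had overlapping groups, with log2 fold changes of -0.85 and -0.90. SOX4 and NKD1, the latter the most abundant member, rose by 0.69 and 0.52. At the end of the heat shock the median was -0.32, and 17 of the 29 were lowered beside 27.2% of all genes. The effect was higher after recovery than at that time for 6 members, beside 1.18% of all genes. They were AXIN2, SP5, TCF7L2, SOX9, PROX1 and DKK1, and all but DKK1 were chosen after their values were seen. The calls of all but SP5 were lost in some fits with 1 sample left out.

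Genes of inflammation and of the interferon response split by gene rather than by list. Of 40 NF-kB and inflammatory genes 29 were tested and 11 were below the CPM limit, and 9 were raised (31% beside 27.0% of all genes), 7 lowered (24.1% beside 27.7%) and 13 did not pass, with a median of 0.04. The chemokine genes CXCL8, CCL26 and CXCL1 rose, CXCL8 from 26.5, 36.0 and 29.7 CPM to 99.8, 117 and 98.2 CPM. Its groups were apart (log2 fold change 1.78, standard error 0.11, edgeR adjusted p = 1.04e-11), and CCL26 and CXCL1 had log2 fold changes of 1.31 and 1.07. TNFAIP2 rose by 0.99, whereas RELA, the most abundant member, had overlapping groups. Of 44 interferon genes 29 were tested and 15 were below the CPM limit, with 7 raised (24.1%), 11 lowered (37.9%) and 11 not passing and a median of -0.15. ISG20 and ISG15 rose by 1.04 and 0.73, and IFIT2 and IFIT3 fell by 0.89 and by 0.78 at levels of at most 2.43 CPM.

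**Figure D3:**
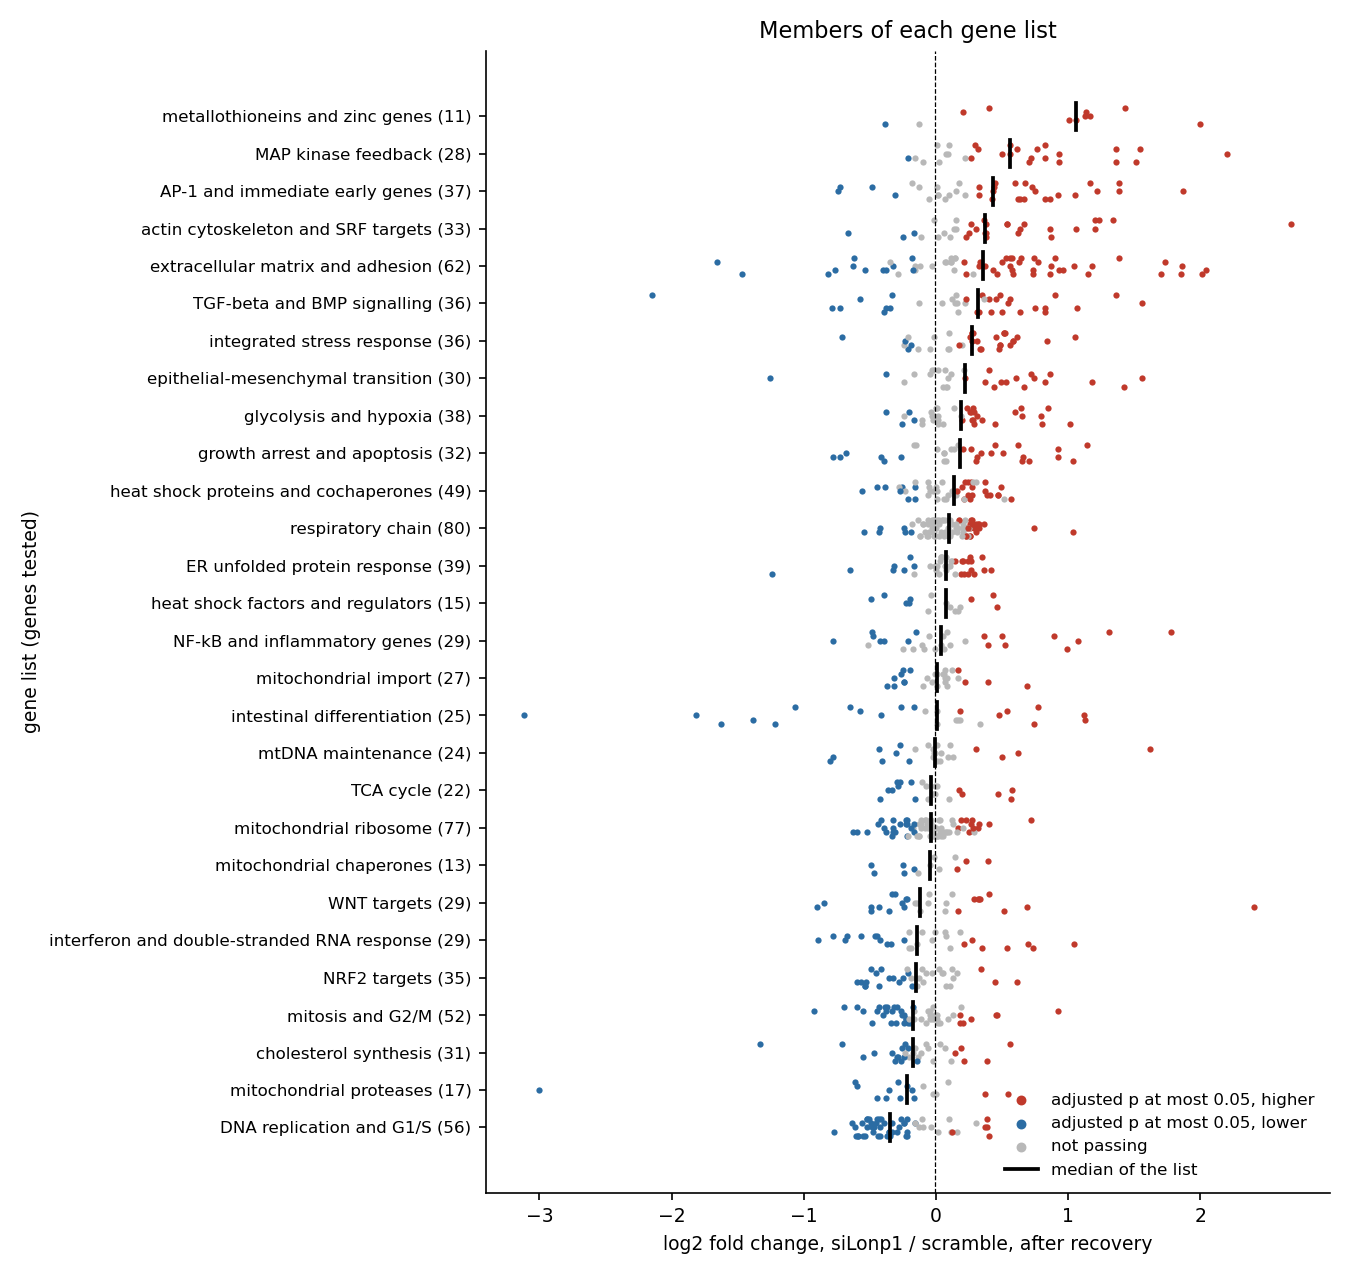
Log2 fold change of siLonp1 over scramble after recovery for each tested member of 28 gene lists (points, red for higher and blue for lower at an edgeR adjusted p of at most 0.05, grey for members that did not pass), with the median of each list as a black bar and the median of all genes as a dashed line. Metallothioneins have the highest median, 1.06, and DNA replication genes the lowest, -0.35.

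Most genes of DNA replication fell by small amounts. Of 57 listed 56 were tested, and 41 were lowered (73.2% beside 27.7% of all genes), 5 raised (8.93% beside 27.0%) and 10 did not pass, none of them beyond 2-fold, with a range of -0.77 to 0.40 and a median of -0.35. ORC1, a subunit of the complex that marks replication origins, stood at 68.0, 66.8 and 67.9 CPM against 39.8, 37.5 and 41.6 CPM. The groups did not overlap (log2 fold change -0.77, standard error 0.06, edgeR adjusted p = 2.41e-10), and the fall was deeper than the -0.31 at 37 °C, by -0.46 (edgeR adjusted p = 0.00354 for the interaction). MCM5 and MCM7, of the replicative helicase, fell by 0.63 and by 0.42, the kinase gene CDC7 by 0.61 and UHRF1, which maintains DNA methylation, by 0.61. The mitosis list was more mixed, with 52 of 52 genes tested, 25 lowered (48.1%), 7 raised (13.5%) and 20 not passing, and a median of -0.17. ESPL1, the gene of separase, fell from 89.2 ± 4.36 to 47.1 ± 0.564 CPM, while PRC1, a bundler of spindle microtubules, rose from 56.8 ± 1.10 to 108 ± 6.58 CPM (mean and SD, n = 3). The kinesin genes KIF15 and KIF2C fell by 0.70 and by 0.60, and TOP2A, the most abundant member, had overlapping groups. Without scramble replicate 1, or with scaling by totals alone, 4 mitosis genes were raised. In bulk RNA, fewer cells in a cycle phase and less of a transcript per cell cannot be told apart.

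Of 37 growth arrest and apoptosis genes 32 were tested, with 16 raised (50% beside 27.0% of all genes), 6 lowered (18.8% beside 27.7%) and 10 not passing and a median of 0.19. TP53INP1 and TP53INP2, regulators of autophagy and cell death, rose by 1.14 and 1.04, the inhibitor of cyclin-dependent kinases CDKN1C by 0.93 and the kinase gene PLK2 by 0.92. BCL2L1, the gene of the survival protein BCL-XL and the most abundant member, rose from 537 ± 25.1 to 877 ± 50.2 CPM (log2 fold change 0.71, edgeR adjusted p = 7.52e-10).

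No gene of the heat shock proteins passed 2-fold. Of 54 genes for heat shock proteins and cochaperones 49 were tested, and 18 were raised (36.7% beside 27.0% of all genes), 8 lowered (16.3% beside 27.7%) and 23 did not pass, with a median of 0.14. HSPA1A and HSPA1B, the inducible HSP70 genes, stood at 3260, 3188 and 3790 CPM and at 3081, 3517 and 3946 CPM with scramble, and at 3914, 3185 and 2791 CPM and 4117, 3459 and 2515 CPM with siLonp1. The groups overlapped widely, siLonp1 replicate 1 being the highest silenced sample and replicate 3 the lowest for both genes, and the log2 fold changes were -0.05 and -0.06 (edgeR adjusted p = 0.661 and adjusted p = 0.644). The pair are near-identical copies and reads cannot be fully assigned to either. HSPA1L, which lies beside HSPA1A and may share reads with it, rose by 0.57. DNAJA1, a cochaperone of HSP70, stood at 1340, 1578 and 1520 CPM against 2176, 2172 and 1808 CPM, and HSPA4L, a nucleotide exchange factor, at 165, 201 and 152 CPM against 225, 274 and 229 CPM. Both rose in every silenced sample, by 0.47 and 0.49. BAG1, another exchange factor, fell by 0.56. With only the recovery samples in the fit, 4 genes of the list were lowered.

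The median over this list was -0.02 at 37 °C and 0.14 at the end of the heat shock, and 4 members passed the interaction with 37 °C. For HSPA4L the effect after recovery exceeded that at 37 °C by 0.75 (edgeR adjusted p = 0.00354 for the interaction), for HSPH1 by 0.59 (edgeR adjusted p = 0.00686), for AHSA1 by 0.48 (edgeR adjusted p = 0.0183) and for DNAJA1 by 0.40 (edgeR adjusted p = 0.0468). HSPH1, an HSP110 chaperone, and AHSA1, an activator of HSP90, were chosen after their values were seen. The calls of HSPA4L and HSPH1 held in each of the 12 fits with 1 sample left out, that of AHSA1 was lost in 1 (without 37 °C siLonp1 replicate 1) and that of DNAJA1 in 9. No member passed the interaction between recovery and the end of the heat shock. HSF1 itself stood at 94.8, 86.1 and 106 CPM against 77.6, 66.0 and 74.9 CPM. Its silenced samples were all lower (log2 fold change -0.39, standard error 0.07, edgeR adjusted p = 0.000112). Of 17 factors and regulators of the response 15 were tested, with 3 raised (20% beside 27.0% of all genes), 5 lowered (33.3% beside 27.7%) and 7 not passing. PLK1 and MAPKAPK2, kinases that phosphorylate HSF1, rose by 0.46 and 0.43, and HSPBAP1 fell by 0.49. Without siLonp1 replicate 1 or 3, or with only the recovery samples in the fit, 3 of these regulators were lowered.

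Most genes of the integrated stress response rose. All 36 listed genes were tested, and 22 were raised (61.1% beside 27.0% of all genes), 4 lowered (11.1% beside 27.7%) and 10 did not pass, with a median of 0.27 against 0.05 at 37 °C and 0.23 at the end of the heat shock, where 19 were raised and 28.1% of all genes were. ASNS, asparagine synthetase, stood at 156, 200.3 and 140.3 CPM against 334, 382 and 315 CPM. It was the 1 member past 2-fold, and its groups did not overlap (log2 fold change 1.05, standard error 0.12, edgeR adjusted p = 1.19e-07). CBS, of cysteine synthesis, and SLC7A11, the cystine importer, rose by 0.84 and 0.61, and SLC7A5, the most abundant member and an importer of large neutral amino acids, by 0.28. NUPR1, a stress-induced cofactor of chromatin, fell by 0.71. The effect after recovery exceeded that at 37 °C for 6 members, which were chosen after their values were seen: SESN2 by 0.89, VLDLR by 0.66, JDP2 by 0.57, TRIB3 by 0.50, PSPH by 0.37 and CEBPG by 0.31 on the log2 scale. TRIB3, a pseudokinase induced by ATF4, had log2 fold changes of 0.49 after recovery and -0.01 at 37 °C, and SESN2, an inhibitor of mTORC1 signalling, of -0.14 and -1.02. With each sample left out in turn, the calls of SESN2, JDP2 and TRIB3 held in all 12 fits, and those of VLDLR, PSPH and CEBPG were lost in 6, 5 and 8.

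Nuclear genes of mitochondria shifted in both directions, and in the mitochondrial lists only LONP1, NDUFA4L2 and TOP1MT changed by more than 2-fold. Of 17 mitochondrial proteases, all tested, 11 were lowered (64.7% beside 27.7% of all genes), 2 raised (11.8% beside 27.0%) and 4 did not pass, with a median of -0.22, and LONP1 alone exceeded 2-fold. OMA1, the stress-activated protease of the inner membrane, stood at 13.9, 14.4 and 12.8 CPM against 9.11, 8.78 and 9.09 CPM, while CLPP, the other large protease of the matrix, stood at 39.2, 41.6 and 50.6 CPM against 72.1, 59.0 and 60.9 CPM. The groups of each gene were apart, and OMA1 fell by 0.61 while CLPP rose by 0.55. MIPEP, which trims imported precursors, fell by 0.60, and YME1L1, the most abundant protease, had overlapping groups at a log2 fold change of 0.00. Of 13 mitochondrial chaperones 3 were raised (23.1% beside 27.0% of all genes), 5 lowered (38.5% beside 27.7%) and 5 did not pass. TRAP1, the mitochondrial HSP90, fell from 537 ± 31.6 to 383 ± 44.3 CPM, and BCS1L and DNAJA3 fell by 0.47 and by 0.25. HSPD1, the most abundant chaperone, rose by 0.23 with overlapping groups. Without scramble replicate 1 or 2, or siLonp1 replicate 1, 1 chaperone was raised, as with scaling by totals alone. With only the recovery samples in the fit, 7 proteases and 3 chaperones were lowered and 1 chaperone was raised.

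Of 89 nuclear-encoded subunits of the respiratory chain 80 were tested, with 22 raised, a share of 27.5% beside 27.0% of all genes, 6 lowered (7.5% beside 27.7%) and 52 not passing and a median of 0.10. NDUFA5, of complex I, rose from 29.9, 36.6 and 31.8 CPM to 53.2, 57.3 and 54.2 CPM, and NDUFA4L2, a hypoxia-inducible relative of a complex IV subunit, from 3.54, 5.17 and 6.36 CPM to 12.03, 7.55 and 11.4 CPM. Neither gene had overlapping groups, and the second was the 1 member past 2-fold, at 1.04. ATP5G1, of the ATP synthase ring, and CYC1, cytochrome c1, fell by 0.54 and by 0.43. Of 77 mitochondrial ribosome proteins, all tested, 11 were raised (14.3% beside 27.0% of all genes), 21 lowered, a share of 27.3% beside 27.7% of all genes, and 45 did not pass, with a median of -0.04. MRPL2, MRPS18B and MRPL24 fell by 0.63, by 0.60 and by 0.52, and MRPS6 rose by 0.72. These counts were sensitive to scaling and to single samples: 12 chain subunits and 6 ribosome proteins were raised without scramble replicate 1, 6 ribosome proteins without siLonp1 replicate 1, and 13 and 7 with scaling by totals alone, where 10 chain subunits were lowered.

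Of genes that maintain mitochondrial DNA 24 were tested, with 4 raised (16.7% beside 27.0% of all genes), 7 lowered (29.2% beside 27.7%) and 13 not passing. TOP1MT, the mitochondrial topoisomerase I, stood at 19.1, 18.3 and 20.4 CPM against 66.4, 55.8 and 55.8 CPM. The groups did not overlap, and the log2 fold change of 1.62 (standard error 0.07, edgeR adjusted p = 9.56e-14) was the largest among the mitochondrial lists apart from LONP1. ATAD3A and ATAD3B, paralogous membrane ATPases that contact nucleoids, stood at 124 ± 19.1 and 54.3 ± 6.11 CPM with scramble and fell by 0.80 and by 0.78, with the limit that reads may be split between them. TK2, a kinase of thymidine salvage, rose by 0.62. Of 28 import genes 27 were tested, with 4 raised (14.8%), 8 lowered (29.6%) and 15 not passing. TIMM17B, of the inner membrane translocase, and TOMM34 rose by 0.69 and 0.39, and CHCHD4 and TOMM40, of oxidative folding and the outer membrane pore, fell by 0.37 and by 0.32. Of 22 TCA cycle genes, all tested, 5 were raised (22.7%), 8 lowered (36.4%) and 9 did not pass. CS, citrate synthase, rose from 408 ± 5.36 to 566 ± 7.67 CPM, IDH3A and SUCLG1 rose by 0.57 each, and SDHA, shared with complex II, fell by 0.43. Without scramble replicate 1, with scaling by totals or with only the recovery samples in the fit, 2 import genes and 3 TCA cycle genes were raised, and without siLonp1 replicate 2, 4 import genes were lowered.

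Glycolysis and hypoxia genes were raised in 19 of 38 tested (40 listed, 50% beside 27.0% of all genes), with 4 lowered (10.5% beside 27.7%), 15 not passing and a median of 0.19. SLC2A3, a high-affinity glucose transporter, rose from 426, 391 and 359 CPM to 749, 822 and 805 CPM. No sample of the groups overlapped (log2 fold change 1.01, standard error 0.06, edgeR adjusted p = 1.23e-11), and NDRG1, CA9 and ALDOC, hypoxia-inducible genes, rose by 0.85, 0.80 and 0.79. With only the recovery samples in the fit, 2 genes of this list were lowered. Targets of NRF2, the regulator of antioxidant genes, were lowered in 15 of 35 tested (36 listed, 42.9% beside 27.7% of all genes), with 3 raised (8.57% beside 27.0%), 17 not passing and a median of -0.15. NQO1, a quinone reductase, fell from 519 ± 14.016 to 349.9 ± 12.966 CPM (mean and SD, n = 3), and AKR1C3 and AKR1C2, close copies of each other, by 0.60 and by 0.54, while SLC7A11, which is also an NRF2 target, rose by 0.61, the largest change of the list. Scaling by RLE factors, or DESeq2, gave 5 raised NRF2 targets.

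Cholesterol synthesis genes were lowered in 14 of 31 tested (45.2% beside 27.7% of all genes), with 5 raised (16.1% beside 27.0%), 12 not passing and a median of -0.18. INSIG1, the sterol-sensing anchor of SREBP in the endoplasmic reticulum and itself an SREBP target, stood at 53.3, 57.7 and 59.9 CPM against 24.2, 23.2 and 20.4 CPM. It fell in every silenced sample (log2 fold change -1.33, standard error 0.09, edgeR adjusted p = 6.95e-11), whereas MVK and SQLE, enzymes of the pathway, fell by 0.71 and by 0.55 and STARD4, a sterol carrier, rose by 0.56. Without scramble replicate 1 or 2 or siLonp1 replicate 3, with scaling by totals or with only the recovery samples in the fit, 2 of these genes were raised, and without siLonp1 replicate 1, 3. The unfolded protein response of the endoplasmic reticulum had 14 raised (35.9% beside 27.0% of all genes), 7 lowered (17.9% beside 27.7%) and 18 not passing among 39 tested (40 listed), with a median of 0.08. DERL3, of the degradation channel, fell by 1.24 near the CPM limit, and ERO1B and DNAJB11, of oxidative folding and of the lumenal HSP70 cycle, rose by 0.42 and 0.36. CREB3L3 fell and passed in the main fit but not with DESeq2 (-0.64). Nor did it pass without scramble replicate 3 (-0.42), siLonp1 replicate 2 (-0.60) or siLonp1 replicate 3 (-0.45). Without siLonp1 replicate 2, or with only the recovery samples in the fit, 9 genes of this list were raised and 4 lowered, and scaling by totals alone gave 8 raised.

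The effect of siLonp1 after recovery was close to that in the other conditions, with which it shares no sample. Across the 12509 genes, which are not independent replicates, its log2 fold changes correlated with those at 37 °C (Pearson r 0.868, Spearman rho 0.843) and with those at the end of the heat shock (Pearson r 0.883, Spearman rho 0.859). At 37 °C siLonp1 raised 304 genes by more than 2-fold (2.43%) and lowered 165 (1.32%), and at the end of the heat shock it raised 291 (2.33%) and lowered 179 (1.43%). Of the 330 genes raised after recovery, 229 were also raised at 37 °C, which is 69.4% of the former and 75.3% of the latter, and 229 at the end of the heat shock, 69.4% and 78.7%. Of the 150 lowered genes, 99 were also lowered at 37 °C (66% and 60%) and 103 at the end of the heat shock (68.7% and 57.5%). In all 3 conditions 188 genes were raised and 84 lowered, DDC among the latter at -4.47 at 37 °C, -4.61 at the end of the heat shock and -4.45 after recovery. Calls made after recovery and in neither other condition numbered 60 upward and 32 downward, but only 16 and 3 of these passed an interaction test.

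Tested directly, the effect of siLonp1 differed between recovery and 37 °C for 206 genes, 87 with a higher log2 effect after recovery (0.695%) and 119 with a lower one (0.951%). This balance turned with no filter, at 120 higher and 86 lower, and was near even with RLE factors, at 101 and 100. Between recovery and the end of the heat shock the effect differed for 184 genes, 147 higher (1.18%) and 37 lower (0.296%), and 38 genes passed both tests. Differences above 2-fold were few, 9 higher (0.0719%) and 3 lower (0.0240%) against 37 °C, and 19 higher (0.152%) and 3 lower (0.0240%) against the heat shock. These counts depend on single samples: leaving out 1 at a time gave between 95 (without 37 °C scramble replicate 1) and 304 (without recovery scramble replicate 3) genes for 37 °C and between 86 (without heat shock scramble replicate 1) and 300 (without recovery scramble replicate 3) for the heat shock.

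**Figure D4:**
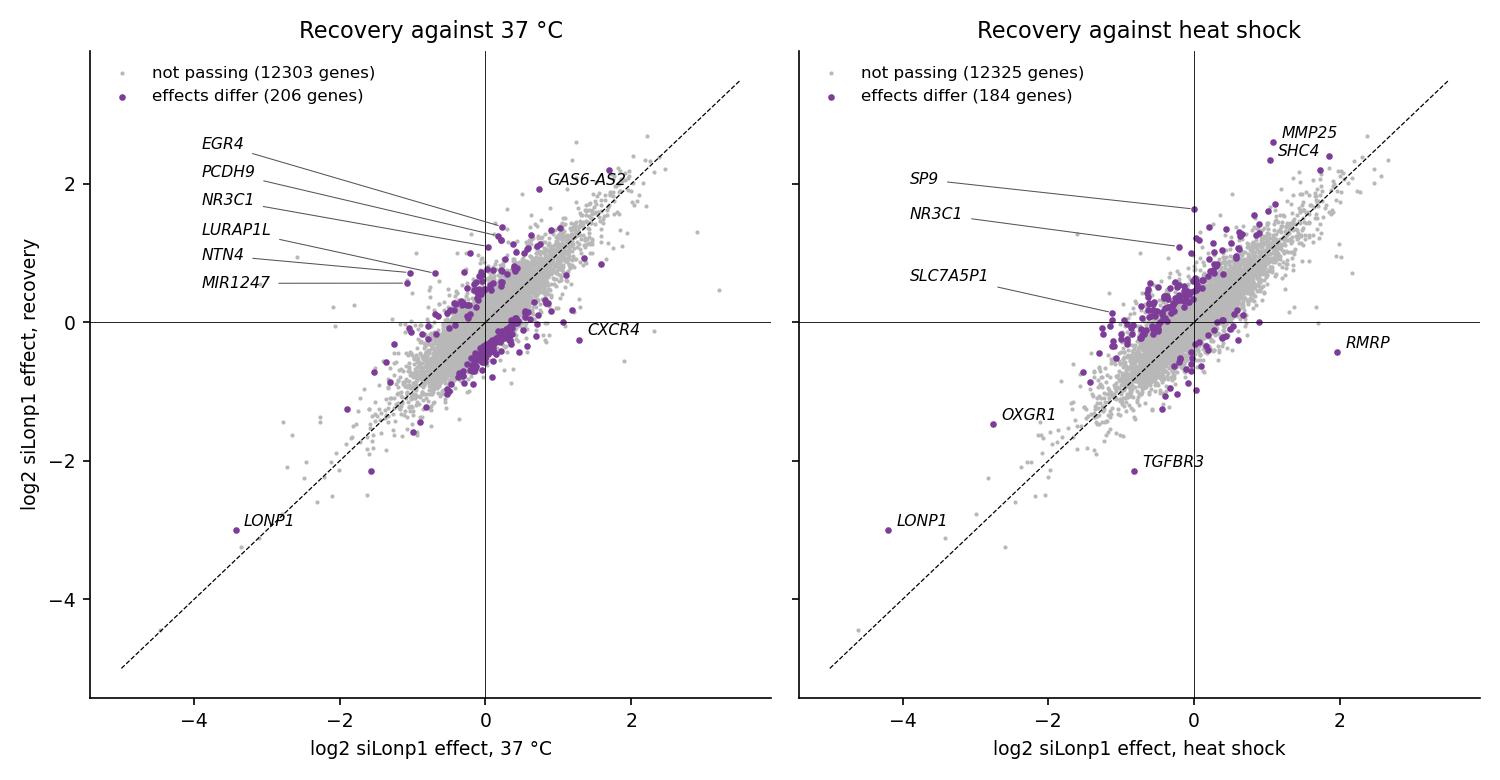
Log2 effect of siLonp1 after recovery (vertical axes) against that at 37 °C (left) and at the end of the heat shock (right), 1 point for each of the 12509 genes, with genes past the interaction test in purple and equality as the dashed line. Most points follow the line, and 206 and 184 genes depart from it past the test.

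NR3C1, the glucocorticoid receptor gene at chr5:143277931-143435512, passed both interaction tests. It stood at 2.18, 1.91 and 2.11 CPM with scramble and at 3.95, 5.00 and 4.34 CPM with siLonp1. The groups were apart after recovery (log2 fold change 1.10, standard error 0.14, edgeR adjusted p = 7.55e-07) and overlapped at 37 °C, at 0.869, 0.798 and 0.835 CPM against 1.04, 0.641 and 0.890 CPM. The effect exceeded that at the end of the heat shock by 1.31 (standard error 0.23, edgeR adjusted p = 0.00424) in all fits with 1 sample left out, and that at 37 °C by 1.06 (standard error 0.24, edgeR adjusted p = 0.0253), a call lost in 6 of 12 such fits, with differences between 0.89 and 1.22. PCDH9, a protocadherin, rose from 24.1, 30.2 and 26.4 CPM to 61.2, 73.1 and 57.6 CPM. Its groups were apart by more than their spread (log2 fold change 1.25), where the change at 37 °C was 0.18, and the difference of 1.07 (standard error 0.13, edgeR adjusted p = 0.00018) held with each sample left out.

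Further genes passed the interaction with 37 °C. LURAP1L, an activator of NF-kB signalling, rose by 0.71 after recovery and fell by 0.69 at 37 °C, a difference of 1.40 (standard error 0.21, edgeR adjusted p = 0.00253). Its levels were 5.77, 5.48 and 4.98 CPM against 9.37, 8.68 and 8.45 CPM after recovery. CXCR4, a chemokine receptor gene, stood at 1.83, 2.08 and 2.35 CPM against 1.75, 1.92 and 1.61 CPM after recovery, where the groups overlapped, and at 0.748, 0.651 and 0.596 CPM against 1.85, 1.26 and 1.75 CPM at 37 °C, where they did not. The difference was -1.53 (standard error 0.25, edgeR adjusted p = 0.00263). Both calls held with each sample left out. NTN4, a netrin of basement membranes, rose by 0.72 from 3.85, 5.41 and 4.98 CPM to 7.57, 8.68 and 7.18 CPM, whereas at 37 °C it stood at 0.399 CPM or less in each sample, and its difference of 1.76 (edgeR adjusted p = 0.0432) was lost in 9 of 12 fits with 1 sample left out. The antisense gene GAS6-AS2, whose reads may not be told apart from those of GAS6, rose by 1.93 after recovery and by 0.73 at 37 °C, a difference of 1.19 (edgeR adjusted p = 0.00482). EGR4 differed by 1.15 (edgeR adjusted p = 0.0182), a call lost without 37 °C scramble replicate 2 at 0.93.

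**Figure D5:**
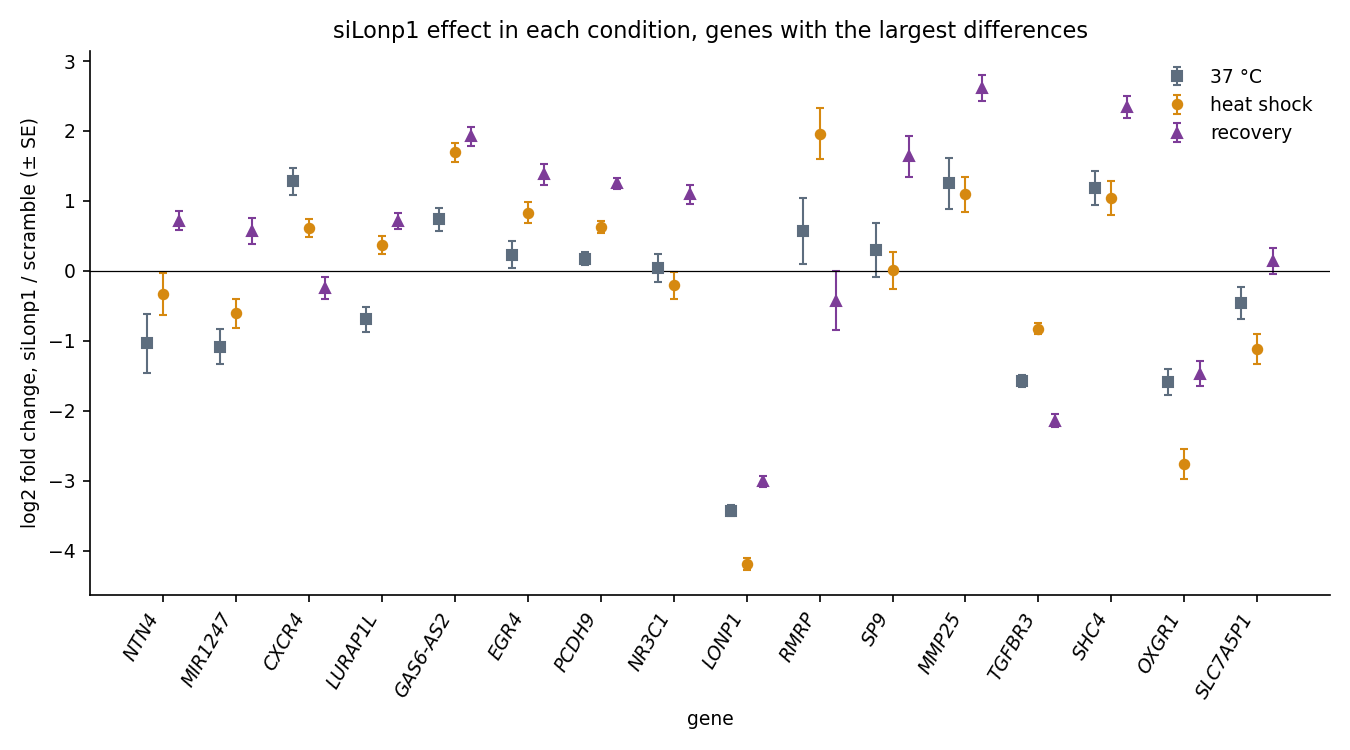
Log2 fold change of siLonp1 over scramble at 37 °C (squares), at the end of the heat shock (circles) and after recovery (triangles), with standard errors as bars, for the genes with the largest differences between conditions. NR3C1 lies near 0 in the first 2 conditions and at 1.10 after recovery, and TGFBR3 falls by 2.14 after recovery and by 0.82 at the end of the heat shock.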

How the data were processed

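The counts are integers per gene symbol as deposited by the authors, who per the submitters' processing notes aligned paired-end reads of TruSeq stranded mRNA preparations to hg38 with STAR 2.7.3a, counted them with featureCounts and used edgeR in R 3.6.3. The strand setting, the treatment of multi-mapping reads and the annotation release are not given in the sources used here, so levels of near-identical copies (HSPA1A and HSPA1B, KRT81 and KRT86, metallothioneins) and of overlapping genes (GAS6-AS2, HSPA1L) are uncertain. The study's methods describe 3 independent biological replicates.

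All 18 samples were fitted in a model with a mean for each group by edgeR 4.0.16 (quasi-likelihood, TMM) in R 4.3.3 with limma 3.58.1, and DESeq2 1.42.0 served as an alternative. Figures used matplotlib 3.10.9 in Python 3.11.15. A gene was called over 2-fold when its adjusted p did not exceed 0.05 and its fold change was larger than 2. The scripts were tested on simulated data. Each pair of recovery samples of the same group differed by more than counting error (chi-square per degree of freedom 14.7 to 25.8, from genes holding 20 counts or more), so neither is a copy of the other. Pairs across groups were not compared.

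Genes named are LONP1, the 15 most raised and the 15 most lowered over 2-fold with a mean of at least 1 CPM and groups that do not overlap, the 8 largest of each interaction with a mean of at least 1 CPM, up to 6 members of each list with the largest changes, HSPA1A, HSPA1B, HSF1, the most abundant member of each list, and markers. Other members are said to be chosen after their values were seen. Members and lists were chosen with earlier results of these data known.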

Additional observations from a re-analysis of the deposited data

Results flagged for a closer look

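Each value here is a difference of the log2 effect of siLonp1 after recovery from its effect in another condition, flagged because the conditions differ: each passed the edgeR interaction test and exceeds 2-fold, and they are LONP1 and the 8 largest per condition among genes with a mean of at least 1 CPM. Groups of 3 samples were not tested for outlying samples.

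Against 37 °C the differences were 1.76 for NTN4, 1.65 for MIR1247, -1.53 for CXCR4, 1.40 for LURAP1L, 1.19 for GAS6-AS2, 1.15 for EGR4, 1.07 for PCDH9 and 1.06 for NR3C1. Those of MIR1247, CXCR4, LURAP1L, GAS6-AS2 and PCDH9 passed in each fit with 1 sample left out.

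Against the end of the heat shock the differences were -2.39 for RMRP, 1.63 for SP9, 1.52 for MMP25, -1.32 for TGFBR3, 1.31 for NR3C1, 1.30 for SHC4, 1.29 for OXGR1, 1.26 for SLC7A5P1 and 1.19 for LONP1. Those of TGFBR3, NR3C1 and LONP1 passed in each fit with 1 sample left out.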

How the results depend on the processing

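Of 186 named genes besides LONP1, 171 passed in the main fit. Of their 2625 values under other settings, 29 no longer passed, in 9 genes, and 0 reversed. The balance of some counts turned. Genes whose effect differed from that at 37 °C, 87 higher and 119 lower, became 120 and 86 with no filter. With no fold limit, 3372 genes upward and 3469 downward became 3469 and 3370 with RLE factors. DESeq2 gave 3465 and 3372, and no filter gave 3783 and 3469. The 330 raised and 150 lowered genes became 632 and 350 with no filter, where more genes were tested. At a fold limit of 1.5 they became 1028 and 727. Asking for CPM above 1 in all 6 samples gave 248 raised and 86 lowered genes, since it removes genes below 1 CPM in either group. With 1 sample left out, raised genes ranged from 258 to 367 and lowered genes from 97 to 155. The CPM limit of 3 samples was kept in these fits, so genes above it only in the group short of a sample were not tested.

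The 206 interactions against 37 °C became 317 with DESeq2, 371 with the likelihood ratio test, 57 at an FDR of 0.01 and 12 over 2-fold, and ranged from 95 to 304 with 1 sample left out. The 184 against the heat shock became 306, 327, 64 and 22 under the same settings, 91 with only the groups compared, and ranged from 86 to 300. Beyond the stricter or looser limits, the cause was not tested.

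LONP1 ranged from -3.08 to -2.96. Scaling by totals alone gave 281 raised and 180 lowered genes, with 431 of its 461 calls shared with the main fit. Of 840 list counts 55 moved, 27 of them with samples left out and 11 with scaling by totals. Of 420 list medians 58 moved, 21 of them with scaling by totals.

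A replicate block gave 330 raised, 149 lowered, 169 interactions against 37 °C and 140 against the heat shock. Residuals of samples with the same number correlated between -0.404 and 0.514 after recovery, and 12 of 45 pairs were over 0.1. Of 6 recovery samples 2 correlated best with their own number. These values do not show that the numbers pair samples, and with 3 samples in a group they cannot exclude it. How small a change can be detected in genes near 1 CPM with 3 samples in a group was not tested.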
